A study of Homo sapiens and Homo sapiens
Mus musculus and Mus musculus with 200 samples.

Results

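The 10 genes described here are BMP2, BMP4, BMP5 and BMP7, which encode secreted bone morphogenetic proteins (BMPs), GREM1 and NOG, which encode the secreted BMP antagonists gremlin 1 and noggin, BMPR1A, BMPR1B and BMPR2, which encode BMP receptors, and BAMBI, which encodes a membrane protein related to the receptors that dampens the signal. Their members in the data were every region and every peak within 100 kb of an annotated GENCODE transcript start of 1 of the genes. These were 283 of the 213151 ATAC-seq regions over which the authors counted H3K27ac reads: 64 at BMPR1B, 61 at BMP7, 30 at BMPR1A, 24 at BAMBI, 20 at BMP4, 19 each at BMP2 and GREM1, 17 at BMP5, 16 at NOG and 13 at BMPR2. BMPR1B and BMP7 each have 9 annotated transcript starts spread over a long gene, so their windows are wider than those of the other genes. A region is named below by its gene and the distance of its middle from the gene's canonical transcript start, positive in the direction of transcription.

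The study used chromatin immunoprecipitation sequencing (ChIP-seq) of TWIST1, of V5-tagged homeodomain factors and of H3K27ac, an acetylated histone found at active promoters and enhancers. The hCNCC, cranial neural crest cells grown from human H9 embryonic stem cells, were either unedited (WT) or edited. TWIST1FV, ALX1FV, PRRX1FV and MSX1FNV cells carry the named factor with a tag that lets dTAGV-1 (500 nM) deplete it, and ALX1FV ALX4- cells also lack ALX4. All 6 lines, WT included, were given dTAGV-1, and H3K27ac was measured at 0, 3 and 24 h with 2 replicates each. TWIST1FV and MSX1FNV each have 1 clone entry in the labels for both replicates, while the 2 replicates of ALX1FV, of ALX1FV ALX4- and of PRRX1FV are different clones. The other samples used are HEK293 cells, a human embryonic kidney line transfected with TWIST1 constructs with or without a homeodomain factor, RS4;11 lymphoblasts, and 5 mouse tissues dissected at E10.5: frontonasal prominence (FNP), maxillary prominence (Mx), mandibular prominence (Md), forelimb (FL) and hindlimb (HL), each with 1 list.

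BMP ligands assemble type I receptors, such as those made from BMPR1A and BMPR1B, with type II receptors, such as that made from BMPR2, and the active complex phosphorylates SMAD proteins that regulate genes in the nucleus. Gremlin and noggin bind ligands outside the cell and keep them from the receptors. In the face and limb buds, BMPs act on outgrowth, skeletal patterning and digit formation, and BMPR1B is known for its part in limb cartilage. TWIST1 is a basic helix-loop-helix factor that binds E-boxes, and ALX1, ALX4, PRRX1 and MSX1 are homeodomain factors of the face and limb mesenchyme.

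Totals over the ATAC regions ran from 5137169 to 9173063 counts per library. All 11 neural crest markers checked had an H3K27ac region at a transcript start, at the 95.1 to 100.0th percentile of level among all regions. Of the neural, endothelial and muscle markers, HES5, PECAM1 and MYF5 had no region at a start, and the others lay at the 2.65 to 66.5th percentile with at most 4.72 CPM, edgeR's library-scaled count unit. Of the stem cell markers, POU5F1, NANOG and TDGF1 had no region at a start, DPPA4 was at the 88.8th percentile and LIN28A at the 99.9th, with 122 to 172 CPM. The part of remaining stem cells in the results below was not tested. In bulk chromatin, a lower mark in every cell and a mark in fewer cells cannot be told apart.

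TWIST1 bound all 10 loci in WT cells. The reference set was 42318 TWIST1 peaks that both untreated WT replicates listed, ranked by the authors' −log10 q in replicate 1, and 103 of them were near the 10 genes. BMP7 and BMPR1B held 26 each, BAMBI 12, BMP5 11, BMP4 9, NOG and BMPR1A 5 each, GREM1 4, BMPR2 3 and BMP2 2. The highest at BMP7, +24.5 kb, ranked 38 of all TWIST1 peaks with an authors' fold enrichment of 101, and the second, +132.5 kb beyond the gene, ranked 62 with a fold enrichment of 110. BAMBI +8.4 kb ranked 949, BMP4 +10.1 kb 1473, BMPR1B +62.9 kb 1885 and BMP5 −15.0 kb 3202. The highest peaks of the other genes ranked between 8990, at GREM1 −72.9 kb, and 26112, at BMP2 −61.3 kb.

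The sequences below are the 151 bases around the summit of 8 of these peaks in hg38, on the plus strand. They are shown because the strongest binding, the largest losses of H3K27ac or the composite motif fall on them. Capitals mark an E-box of the kind TWIST1 binds (the motif CAGATG, read on the other strand as CATCTG, the palindrome CAGCTG, or else the palindrome CATATG) or a homeodomain site (the palindrome TAATTA, or else the motif TAATTG). Both strands were searched.
BMP7 +24.5 kb, chr20:57241808-57241958: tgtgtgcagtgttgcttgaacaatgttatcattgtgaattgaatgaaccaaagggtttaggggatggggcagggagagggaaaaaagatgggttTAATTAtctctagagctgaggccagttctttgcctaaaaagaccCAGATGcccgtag
BMP7 +132.5 kb, chr20:57134326-57134476: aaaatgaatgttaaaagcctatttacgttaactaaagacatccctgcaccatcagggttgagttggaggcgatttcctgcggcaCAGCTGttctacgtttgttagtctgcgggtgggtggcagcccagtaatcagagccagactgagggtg
BAMBI +8.4 kb, chr10:28685747-28685897: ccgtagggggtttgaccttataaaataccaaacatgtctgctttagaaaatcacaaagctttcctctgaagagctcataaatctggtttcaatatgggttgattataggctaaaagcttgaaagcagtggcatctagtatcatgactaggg
BMPR1B +9.2 kb, chr4:94766942-94767092: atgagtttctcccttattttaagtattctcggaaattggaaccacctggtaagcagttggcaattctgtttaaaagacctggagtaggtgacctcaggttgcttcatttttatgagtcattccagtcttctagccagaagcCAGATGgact
BMPR1B +348.8 kb, chr4:95106701-95106851: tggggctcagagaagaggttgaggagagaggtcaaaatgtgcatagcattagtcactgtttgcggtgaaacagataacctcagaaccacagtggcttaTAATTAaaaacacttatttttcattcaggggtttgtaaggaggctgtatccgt
BMP4 +21.4 kb, chr14:53935405-53935555: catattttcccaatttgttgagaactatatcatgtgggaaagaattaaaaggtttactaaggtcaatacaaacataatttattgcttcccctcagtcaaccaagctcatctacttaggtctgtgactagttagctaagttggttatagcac
BMP4 −82.7 kb, chr14:54039444-54039594: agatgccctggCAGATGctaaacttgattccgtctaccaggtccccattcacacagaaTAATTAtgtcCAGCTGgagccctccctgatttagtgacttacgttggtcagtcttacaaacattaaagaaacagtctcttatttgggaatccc
BMP5 −17.7 kb, chr6:55893099-55893249: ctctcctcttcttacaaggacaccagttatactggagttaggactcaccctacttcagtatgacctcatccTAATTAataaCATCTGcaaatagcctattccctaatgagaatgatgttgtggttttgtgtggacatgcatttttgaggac
In the BMP4 −82.7 kb and BMP5 −17.7 kb sequences a homeodomain site and an E-box stand 4 bp apart, the composite spacing. BMP7 +24.5 kb holds both sites farther apart, BMP7 +132.5 kb and BMPR1B +9.2 kb hold an E-box only, and BMPR1B +348.8 kb a homeodomain site only. BAMBI +8.4 kb and BMP4 +21.4 kb hold none of these letters within the window. In windows of 201 bp, an E-box was found at 54 of the 103 peaks (52.4%, against 67.5% of all 42318), a homeodomain site at 32 (31.1%, against 25.3%), and the composite at 2 (1.94%, against 1148 or 2.71%). An E-box pair 5 bp apart was found at 1 (0.971%, against 0.917%). The composite peaks were not among the highest: they ranked 5946 at BMP4 and 21690 at BMP5. A match describes the letters of the window only.

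After 3 h of dTAGV-1, nearly all TWIST1 peaks at these loci were missing from the TWIST1FV lists. In TWIST1FV, 2 of 80 peaks near the 10 genes listed at 0 h in replicate 1 were still listed at 3 h (2.50%, exact Clopper-Pearson 95% interval 0.304 to 8.74), and 2 of 55 in replicate 2 (3.64%, 0.443 to 12.5). These intervals cover counting over the peaks of 1 library only, and peaks are not replicates of the treatment. In WT, which received the same compound, 105 of 125 (84%, 76.4 to 89.9) and 93 of 118 (78.8%, 70.3 to 85.8) were. The means were 3.07% ± 0.804 and 81.4% ± 3.67 (SD, n = 2 each), a difference of 78.3 percentage points in favour of WT, and the exact two-sided permutation test gave p = 0.33, the smallest that 2 against 2 libraries allow. Before treatment, the TWIST1FV lists already held fewer of the reference peaks, which come from WT. They overlapped 73 and 54 of the 103 (70.9% and 52.4%, against 67.2% and 54.4% of all 42318). The WT lists at 3 h overlapped 96 and 91 (93.2% and 88.3%). The 3 h lists of TWIST1FV overlapped 1.94% and 1.94% of the 103 reference peaks, against 1.94% and 1.73% of all 42318. The reference peaks still listed were BMP4 +10.1 kb in both replicates, BMP7 +24.5 kb in replicate 1 and BMP5 −15.0 kb in replicate 2. The authors' lists hold no read depth, so a peak missing from a list may still be bound below the calling threshold.

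**Figure D1:**
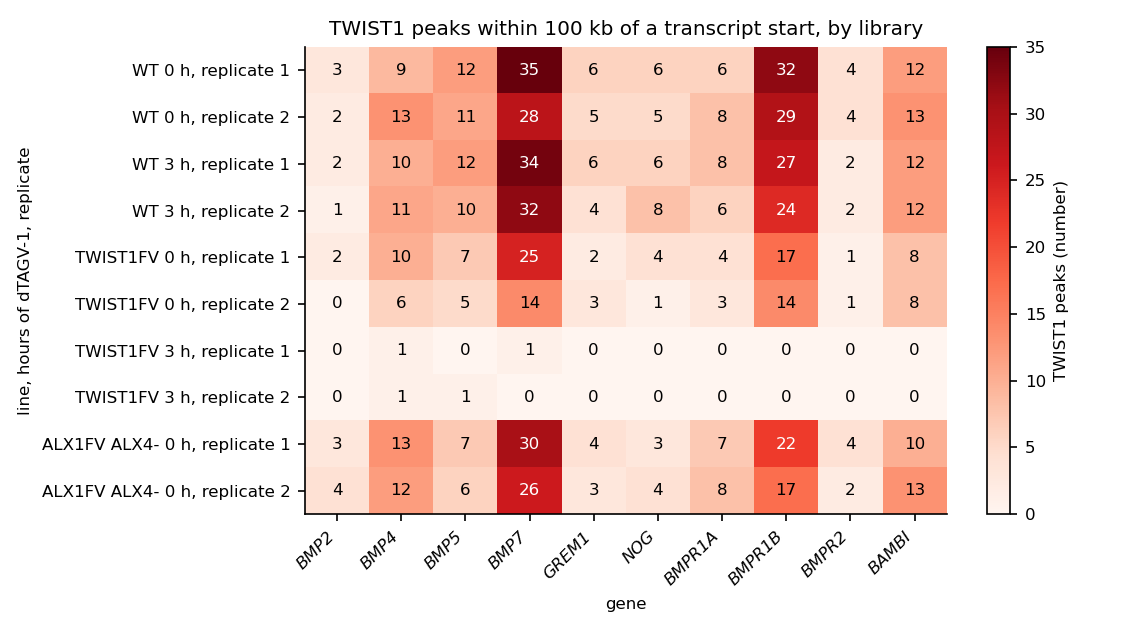
Number of TWIST1 peaks within 100 kb of a transcript start of each gene (columns) in each hCNCC library (rows: line, hours of dTAGV-1 and replicate). TWIST1FV at 3 h lists 2 peaks in each replicate, while WT lists 119 and 110.

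After TWIST1 was depleted, H3K27ac fell at 16 of the 227 member regions with enough counts to test at 3 h and at 32 at 24 h, most of them at BMPR1B, BMP7 and BAMBI. A region was called at an edgeR false discovery rate (FDR) below 0.05 over all 123361 tested regions. The falling shares were 7.05% at 3 h, against 4.28% of all tested regions, and 14.1% at 24 h, against 9.49%. H3K27ac rose at 4 member regions at 3 h, against 1.01% of all, and at 10 at 24 h (4.41%, against 4.28%). The median log2 change was −0.16 at 3 h and −0.15 at 24 h, and 0.02 and 0.03 over all tested regions. Libraries were scaled to each other, so changes are relative to most regions, and a shift shared by all regions would not show. Of the 16 regions that fell at 3 h, 15 also fell at 24 h, and 3 of the 4 that rose did so at both times. The counts at 3 h rested partly on single libraries: 10 regions fell without TWIST1FV 0 h replicate 1, and the number that rose was 1 without 0 h replicate 1, 1 without 0 h replicate 2 and 2 without 3 h replicate 1. At 24 h, 6 regions rose without 0 h replicate 1. In every fit that left out 1 library, each called region kept its sign, and 8 of the 16 falling regions at 3 h and 18 of the 32 at 24 h stayed below the threshold in all of them, as did 0 of the 4 and 4 of the 10 rising regions.

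The falls lay mostly where TWIST1 bound in WT. Of 94 tested member regions that overlapped a reference TWIST1 peak, 28 fell at 24 h (29.8%, against 28.9% of all such regions), and their median log2 change was −0.67, against −0.73. Of the regions without such a peak, 4 fell (3.01%, against 1.07%), with a median of 0.19, against 0.23. The shares of bound regions that fell were 12 of 25 at BMPR1B (48%) and 5 of 11 at BAMBI (45.5%). BMP7, with 7 of 26 (26.9%), was near the 28.9% of all such regions. At BMP5 0 of 8 fell and at GREM1 0 of 4, shares that rest on few regions. By position, 18 of 120 intronic regions, 11 of 58 regions between genes, 2 of 18 regions at a transcript start of their gene and 1 of 31 in other exons fell at 24 h. These shares were not set beside those of all regions by position.

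**Figure D2:**
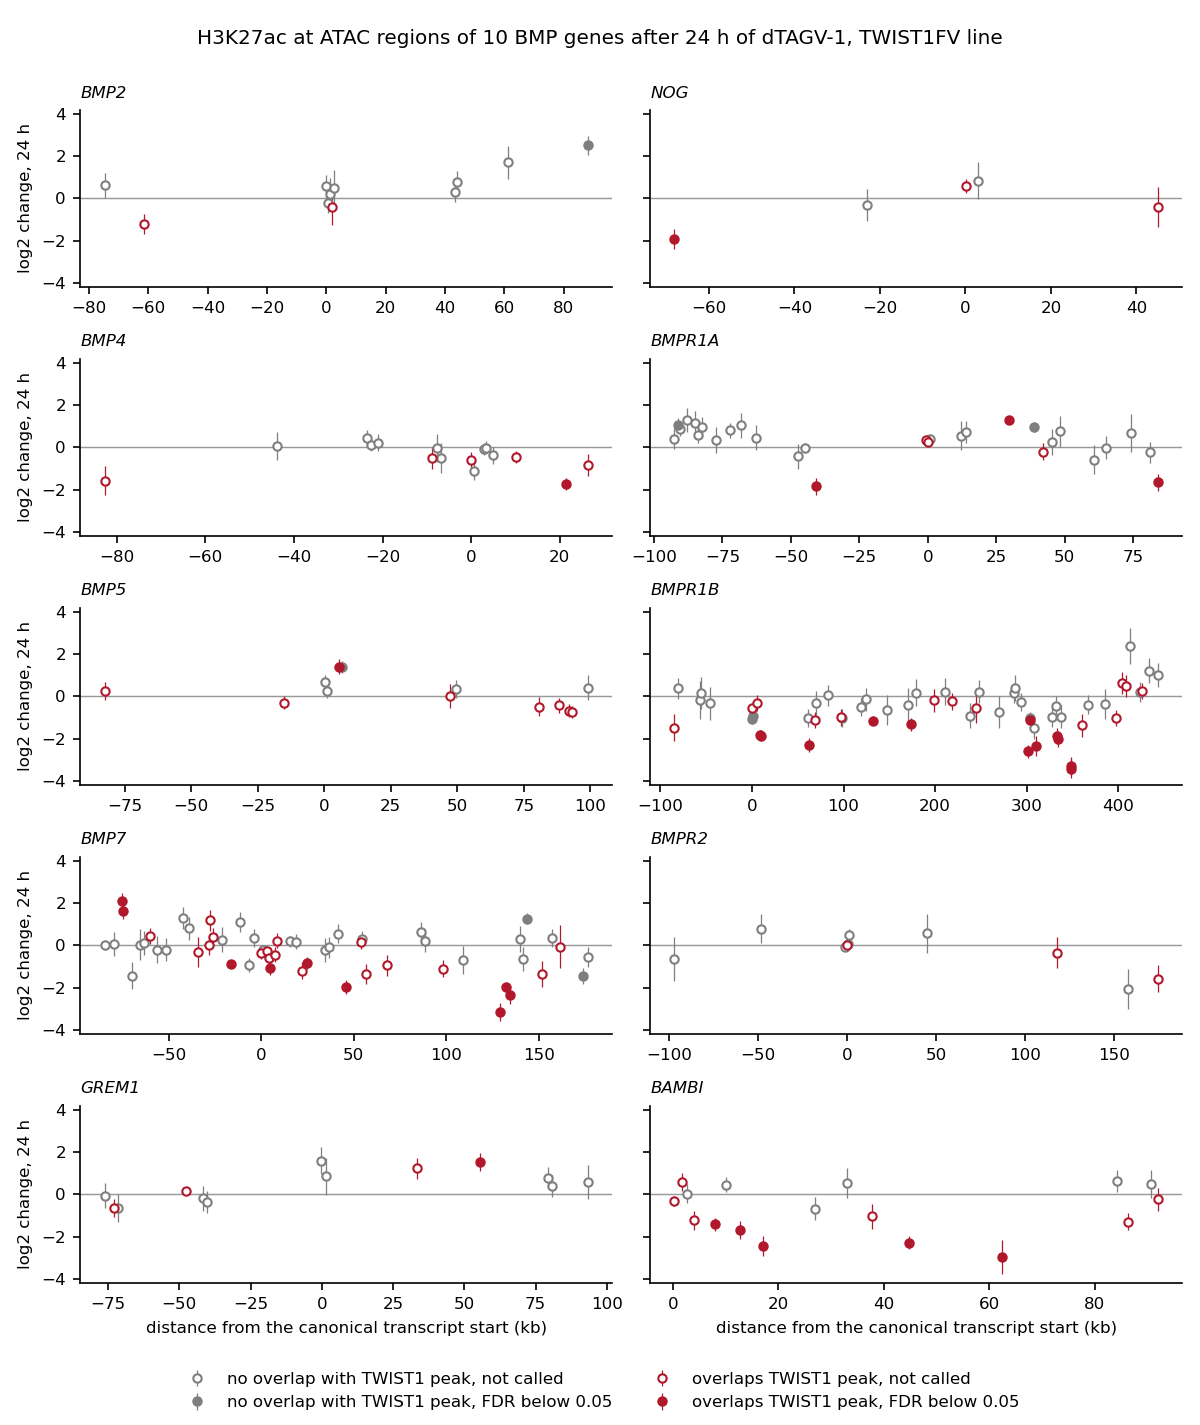
Log2 change of H3K27ac at 24 h against 0 h in TWIST1FV (y axis, with its standard error) at each tested region, by distance from the canonical transcript start of its gene in kb (x axis). Red points overlap a TWIST1 peak of WT, filled points have an edgeR FDR below 0.05, and the filled points below 0 gather at BMPR1B, BMP7 and BAMBI.

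No member region was called in another line during treatment. In WT, ALX1FV, ALX1FV ALX4-, PRRX1FV and MSX1FNV, edgeR and DESeq2 each called 0 of 233, 213, 224, 216 and 208 tested member regions at 3 h and at 24 h. Unadjusted edgeR p-values under 0.05 were found at 5 and 7 regions in WT at 3 and 24 h, 1 and 5 in ALX1FV, 12 and 16 in ALX1FV ALX4-, 3 and 5 in PRRX1FV and 9 and 8 in MSX1FNV. Over all tested regions, edgeR called 0% and 0% in WT, 0% and 0% in ALX1FV, 0% and 0.0279% in ALX1FV ALX4-, 0% and 0.000827% in PRRX1FV, and 0.00179% and 0.00448% in MSX1FNV. The response of TWIST1FV minus that of WT was an interaction in a joint edgeR fit of all 36 libraries, with 268 tested member regions. It was lower at 14 of them at 3 h (2.10% of all tested regions were) and at 26 at 24 h (4.92%). It was higher at 1 (0.253%) and 6 (1.16%). At 24 h, 25 of the 32 falling and 5 of the 10 rising regions were among them. The count lower at 3 h was 9 without WT 0 h replicate 2. The 1 region higher at 3 h was 0 without TWIST1FV 3 h replicate 2, WT 0 h replicate 2 or WT 3 h replicate 2, and 2 without TWIST1FV 3 h replicate 1. The 6 higher at 24 h were 3 without TWIST1FV 0 h replicate 1, 2 without TWIST1FV 0 h replicate 2, TWIST1FV 24 h replicate 2 or WT 24 h replicate 1, and 1 without WT 0 h replicate 2.

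Among the receptors, BMPR1B had the most regions that fell. This gene of a type I receptor had 6 falling regions at 3 h of 58 tested (10.3%, against 4.28% of all tested regions). At 24 h it had 15 (25.9%, against 9.49%), and none rose at either time. Summed over its 64 regions, H3K27ac in TWIST1FV was 592 and 525 CPM at 0 h, 342 and 379 at 3 h, and 257 and 274 at 24 h. In WT the sum was 608 and 629, 619 and 645, and 588 and 628 CPM, so at each time both WT libraries lay above both TWIST1FV libraries. The largest fall was at BMPR1B +348.8 kb (chromosome 4, 95106518 to 95107018, in an intron near a downstream transcript start). Its level in TWIST1FV was 18.3 and 19.6 CPM at 0 h, 5.57 and 7.42 at 3 h, and 0.686 and 2.85 at 24 h, while WT had 21.4 and 20.0, 21.0 and 21.8, and 16.2 and 17.9. The groups did not overlap at 24 h, and the log2 change was −3.44 ± 0.45 (SE, n = 2 against 2, edgeR FDR 4.56e-05). The difference from the response of WT was −3.17 ± 0.45 (FDR 3.61e-07). At 3 h this region changed by −1.56 (FDR 0.0250), a call lost without TWIST1FV 0 h replicate 1 (0.0540) or replicate 2 (0.0685). The neighbouring region at +348.3 kb changed by −2.24 ± 0.39 at 3 h (FDR 0.00221) and −3.32 ± 0.42 at 24 h (FDR 3.67e-05).

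BMPR1B +9.1 kb, in the first part of the gene and over the TWIST1 peak printed as BMPR1B +9.2 kb, was at the 96.7th percentile of level. It had 42.9 and 37.1 CPM at 0 h, 15.6 and 16.5 at 3 h and 11.0 and 11.4 at 24 h in TWIST1FV, against 40.1 to 60.0 in the 6 WT libraries. All 4 treated TWIST1FV libraries were below both untreated ones, with log2 changes of −1.33 ± 0.22 (edgeR FDR 0.00168) and −1.83 ± 0.23 (FDR 2.89e-05). Both transcript-start regions called among the 10 genes were of BMPR1B, at −0.2 and +333.5 kb. The region at −0.2 kb went from 27.9 and 35.2 CPM to 22.8 and 25.2 at 3 h and 13.8 and 15.7 at 24 h. Its log2 change was −0.40 at 3 h (FDR 0.369) and −1.09 ± 0.23 at 24 h (FDR 0.00292), and the 24 h call was lost without TWIST1FV 0 h replicate 2 (0.0591). BMPR1B +1.0 kb, beside it, went from 41.6 and 42.5 to 20.3 and 24.2 CPM at 24 h (log2 change −0.91, edgeR FDR 0.00520). The start region also overlaps BMPR1B-DT, a divergent transcript, and ChIP cannot assign it to either.

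At BMPR1A, also a type I receptor gene, single regions moved in both directions. H3K27ac fell at 2 of the 29 tested BMPR1A regions at 24 h (6.90%, against 9.49% of all tested regions). It rose at 3 at 24 h (10.3%, against 4.28%), and 3 had risen at 3 h (1.01% of all tested regions rose then). BMPR1A +29.7 kb (chromosome 10, 86785925 to 86786801, intronic) overlapped a reference TWIST1 peak of WT that ranked 16415. Of the TWIST1FV lists at 0 h, that of replicate 1 held this peak and that of replicate 2 did not. The region had 32.0 and 25.4 CPM at 0 h, 54.6 and 66.1 at 3 h, and 70.4 and 68.1 at 24 h in TWIST1FV. WT stayed between 48.8 and 57.7 CPM in all 6 libraries, so TWIST1FV lay below WT before treatment and above it at 24 h. The log2 change was 1.06 ± 0.18 at 3 h (edgeR FDR 0.00224, lost without TWIST1FV 0 h replicate 2, 0.0581) and 1.28 ± 0.18 at 24 h (FDR 0.000128), and the difference from WT at 24 h was 1.36 ± 0.24 (FDR 3.61e-05). BMPR1A −40.8 kb, in an intron of the neighbouring gene LDB3, fell by 1.85 at 24 h (FDR 0.00510, lost without 0 h replicate 2, 0.138), and the difference from WT was not called (−1.51 ± 0.53, FDR 0.0845). BMPR1A +84.1 kb fell by 1.66 at 24 h (FDR 0.00934, lost without 0 h replicate 2, 0.0734, or 24 h replicate 2, 0.103). At −84.0 kb a rise at 3 h (log2 change 1.34, FDR 0.0443) was lost without either untreated library (0.214 and 0.202 for replicates 1 and 2) and without 3 h replicate 1 (0.269). The region at −84.0 kb also lies in an intron of LDB3, its nearest protein-coding gene. The start region of BMPR1A had 51.9 to 82.4 CPM in the 6 TWIST1FV libraries and was not called (log2 change 0.25 at 24 h, FDR 0.439). None of the 10 tested regions of BMPR2, a type II receptor gene, was called by edgeR (unadjusted p under 0.05 at 0 regions at 3 h and 2 at 24 h). The BMPR2 start region had a log2 change of 0.03 at 24 h (FDR 0.959).

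**Figure D3:**
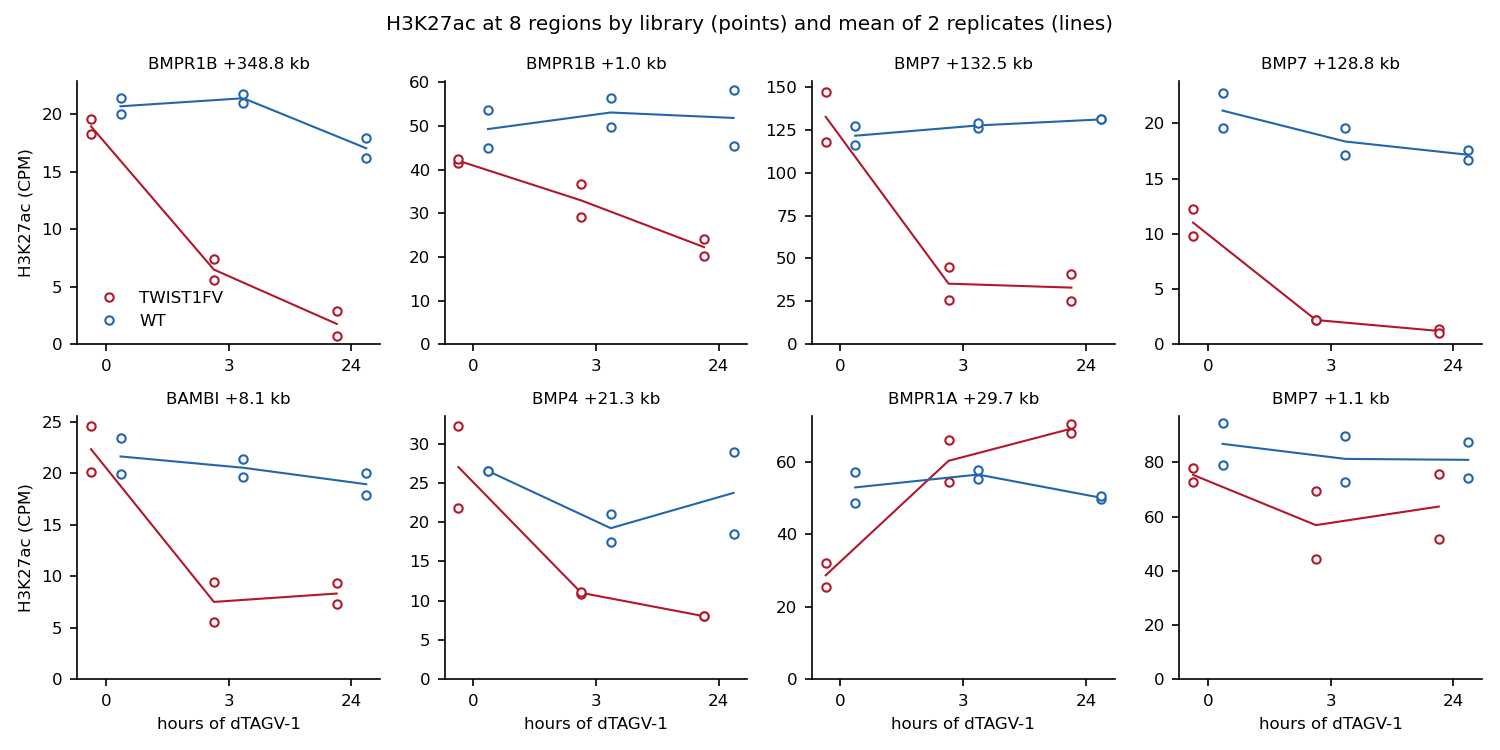
H3K27ac in CPM (y axis) at 8 regions after 0, 3 and 24 h of dTAGV-1 (x axis) in TWIST1FV (red) and WT (blue); points are libraries and lines join the means of 2 replicates. At BMPR1B +348.8 kb, both TWIST1FV libraries fall below 3 CPM at 24 h, BMPR1A +29.7 kb rises, and the BMP7 start region at +1.1 kb was not called.

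Among the ligands, BMP7 had 5 falling regions at 3 h of 55 tested (9.09%, against 4.28% of all tested regions). At 24 h 8 fell (14.5%, against 9.49%) and 3 rose (5.45%, against 4.28%). BMP7 +132.5 kb (chromosome 20, 57133656 to 57134702, between genes), which underlies the TWIST1 peak ranked 62, was chosen for its binding after its values were seen. It had 147 and 118 CPM at 0 h, 44.8 and 25.8 at 3 h and 40.9 and 25.1 at 24 h in TWIST1FV, and 116 to 131 CPM in the 6 WT libraries. The treated and untreated TWIST1FV libraries did not overlap, and the log2 change was −1.91 at 3 h (edgeR FDR 0.000272) and −1.99 ± 0.26 at 24 h (FDR 4.18e-05). The neighbouring regions at +128.8 and +134.7 kb fell as well, from lower levels. BMP7 +128.8 kb went from 12.2 and 9.82 CPM to 1.37 and 1.04 at 24 h, a log2 change of −3.16 ± 0.42 (FDR 5.85e-05), while WT went from 22.7 and 19.6 to 16.7 and 17.6. BMP7 +134.7 kb had a log2 change of −2.36 ± 0.43 at 3 h (FDR 0.00317) and −2.35 ± 0.42 at 24 h (FDR 0.000982). BMP7 −16.6 kb, upstream of the gene, in an exon of the annotated gene ENSG00000226308 and among the highest regions of all (99.8th percentile), went from 127 and 118 CPM to 61.7 and 52.9 at 3 h and 78.8 and 52.0 at 24 h. Its log2 changes were −1.11 ± 0.19 (FDR 0.00202) and −0.90 ± 0.19 (FDR 0.00329), the second lost without TWIST1FV 24 h replicate 2 (0.0780). The strongest TWIST1 peak of the locus lies in the region at +24.9 kb, where the log2 change was −0.80 at 3 h (FDR 0.105) and −0.84 at 24 h (FDR 0.0461). The start region of BMP7 at +1.1 kb had 72.9 and 77.9 CPM at 0 h and 75.8 and 51.6 at 24 h, and was not called (log2 change −0.23, FDR 0.567). In the other direction, BMP7 −75.3 kb, in an intron of SPO11, a gene of meiotic recombination, went from 2.62 and 1.92 to 10.7 and 8.81 CPM at 24 h, a log2 change of 2.12 ± 0.39 (FDR 0.00114).

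The other ligand genes had few called regions. BMP4 +21.3 kb (chromosome 14, 53935036 to 53936040, between genes) was the only 1 of 16 tested BMP4 regions to fall. It had 32.3 and 21.8 CPM at 0 h, 10.9 and 11.1 at 3 h and 8.00 and 8.04 at 24 h in TWIST1FV, and 17.5 to 29.0 in WT. The TWIST1FV libraries separated by treatment, with log2 changes of −1.31 ± 0.27 at 3 h (edgeR FDR 0.00764, lost without TWIST1FV 0 h replicate 1, 0.182) and −1.74 ± 0.27 at 24 h (FDR 0.000294). At BMP4 +21.3 kb, WT had a log2 change of −0.44 at 3 h. The difference in response from WT was not called there at 3 h (−0.83 ± 0.35, edgeR FDR 0.300). It was called at 24 h (−1.59 ± 0.35, FDR 0.00124). BMP5 had no falling region among 13 tested and 2 that rose at 24 h. BMP5 +5.7 kb, an intronic region, overlapped a reference TWIST1 peak of WT that ranked only 57037 and that neither TWIST1FV list at 0 h held. The region went from 4.07 and 5.27 to 11.9 and 13.0 CPM at 24 h, a log2 change of 1.41 ± 0.35 (FDR 0.0117). That call was lost without 0 h replicate 1, and the difference from WT was not called (1.38 ± 0.54, FDR 0.147). BMP2 had 1 region that rose among 11 tested, at +88.3 kb between genes: 1.16 and 1.20 CPM at 0 h and 5.94 and 7.78 at 24 h, a log2 change of 2.52 ± 0.45 (FDR 0.000935). WT had log2 changes of 1.38 at 3 h and 0.79 at 24 h there, from 0.739 and 0.603 CPM, and the difference in response at 24 h was not called (1.75 ± 1.04, FDR 0.473). The start regions BMP2 +0.0 kb, BMP4 +3.4 kb and BMP5 +0.1 kb were not called, with log2 changes at 24 h of 0.57 (FDR 0.578), −0.01 (FDR 0.995) and 0.67 (FDR 0.263).

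Of the inhibitors, BAMBI had 4 falling regions at 3 h among 17 tested (23.5%, against 4.28% of all tested regions). At 24 h it had 5 (29.4%, against 9.49%). BAMBI +44.9 kb (chromosome 10, 28721974 to 28722851, between genes) had 18.8 and 18.7 CPM at 0 h, 5.85 and 7.96 at 3 h and 4.34 and 3.24 at 24 h in TWIST1FV, and 20.4 to 25.1 CPM in WT. All treated TWIST1FV libraries were below all others, with log2 changes of −1.45 ± 0.31 (edgeR FDR 0.00943) and −2.29 ± 0.32 (FDR 0.000107), the first lost without TWIST1FV 0 h replicate 1 (0.0563) or 3 h replicate 1 (0.0560). BAMBI +17.1 kb changed by −2.30 at 3 h (FDR 0.00706, lost without 3 h replicate 1, 0.0559) and −2.45 ± 0.47 at 24 h (FDR 0.00162), from 7.27 and 6.23 to 1.14 and 1.3 CPM. BAMBI +8.1 kb, over the strongest TWIST1 peak of the locus, went from 24.6 and 20.1 CPM to 5.57 and 9.44 at 3 h and 7.31 and 9.33 at 24 h (log2 changes −1.58, FDR 0.00494, and −1.42, FDR 0.00365). The BAMBI start region was not called, with a log2 change of −0.32 at 24 h (FDR 0.485). The antagonist genes had 1 called region each in a given direction. NOG −68.1 kb, 1 of 5 tested, went from 4.36 and 5.03 to 0.914 and 1.56 CPM at 24 h, a log2 change of −1.92 ± 0.49 (FDR 0.0138) that was lost without 24 h replicate 1 (0.132) or 0 h replicate 2 (0.0706). WT went from 5.18 and 4.37 to 3.20 and 2.48 CPM (log2 change −0.74, FDR 0.999), and the difference in response was not called (−1.18 ± 0.68, FDR 0.450). GREM1 +55.3 kb, in an exon of the neighbouring gene FMN1, rose from 2.62 and 1.44 CPM to 6.40 and 5.80 at 3 h and 6.40 and 5.19 at 24 h. Its log2 changes were 1.59 ± 0.43 (FDR 0.0375) and 1.54 ± 0.42 (FDR 0.0214). WT had 1.73 and 0.603 CPM at 0 h and 2.71 and 1.93 at 24 h (log2 change 0.96, FDR 0.999), and the responses of TWIST1FV and WT were not distinguished at 24 h (difference 0.58 ± 0.86, FDR 0.863). The 3 h call in TWIST1FV was lost without either untreated TWIST1FV library (0.0544 and 0.335) or either 3 h library (0.0858 and 0.0525), and the 24 h call without 24 h replicate 1 (0.105) or 0 h replicate 2 (0.254). The start regions of GREM1 and NOG were not called (log2 changes at 24 h of 1.60, FDR 0.110, and 0.60, FDR 0.286).

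Before any treatment, the line without ALX4 had less H3K27ac at regions of BMPR1B and BMP7. At 0 h, ALX1FV ALX4- was lower than ALX1FV, which carries the same tag and has ALX4, at 24 of 268 tested member regions (2.33% of all tested regions were lower) and higher at 0 (0.731%), where 54 regions had an unadjusted edgeR p under 0.05 in either direction. BMPR1B held 13 of the 24, BMP7 8, and BMP5, BMPR1A and BAMBI 1 each. TWIST1 peaks of WT overlapped 21 of the 24 (87.5%, against 90.5% of all 4065 lower regions). Of the 24, 16 (66.7%) also fell in TWIST1FV at 24 h, which is 50% of the 32 that did, and over all regions the shares were 69.8% and 24.2%. These 2 comparisons share no library. The number lower was 13 without ALX1FV 0 h replicate 1, 12 without ALX1FV 0 h replicate 2, 5 without ALX1FV ALX4- 0 h replicate 1 and 10 without its replicate 2, where the lone library is assumed to vary like the other groups. The clones of the 2 lines differ, so the clone and the loss of ALX4 cannot be told apart.

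The largest of these differences was at BMPR1B +397.5 kb (chromosome 4, 95155039 to 95155884, in an exon of BMPR1B). It had 2.17 and 2.72 CPM in ALX1FV ALX4-, 11.8 and 15.4 in ALX1FV and 27.8 and 31.2 in WT. The groups did not overlap, and the log2 difference was −2.48 ± 0.40 from ALX1FV (edgeR FDR 2.50e-05) and −3.59 from WT (FDR 4.26e-10). At BMP7 −16.6 kb the levels were 63.4 and 77.3 CPM in ALX1FV ALX4- and 106 and 117 in ALX1FV, a log2 difference of −0.66 (FDR 0.00126), lost without ALX1FV replicate 2 (0.0515) or ALX1FV ALX4- replicate 1 (0.150). BAMBI +44.9 kb, which also fell in TWIST1FV, had 10.9 and 11.2 CPM against 26.2 and 21.7, a log2 difference of −1.12 (FDR 0.00140). That call was lost without ALX1FV ALX4- replicate 1 (0.0544) or 2 (0.0530) or ALX1FV replicate 1 (0.0711). BMP5 +92.1 kb had 7.60 and 3.54 against 13.4 and 14.7 CPM, a log2 difference of −1.31 (FDR 0.00290, lost without ALX1FV ALX4- replicate 2, 0.338). BMPR1A +84.1 kb differed by −1.49 (FDR 0.00918, lost without ALX1FV ALX4- replicate 1, 0.128, or 2, 0.130, or ALX1FV replicate 1, 0.127).

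**Figure D4:**
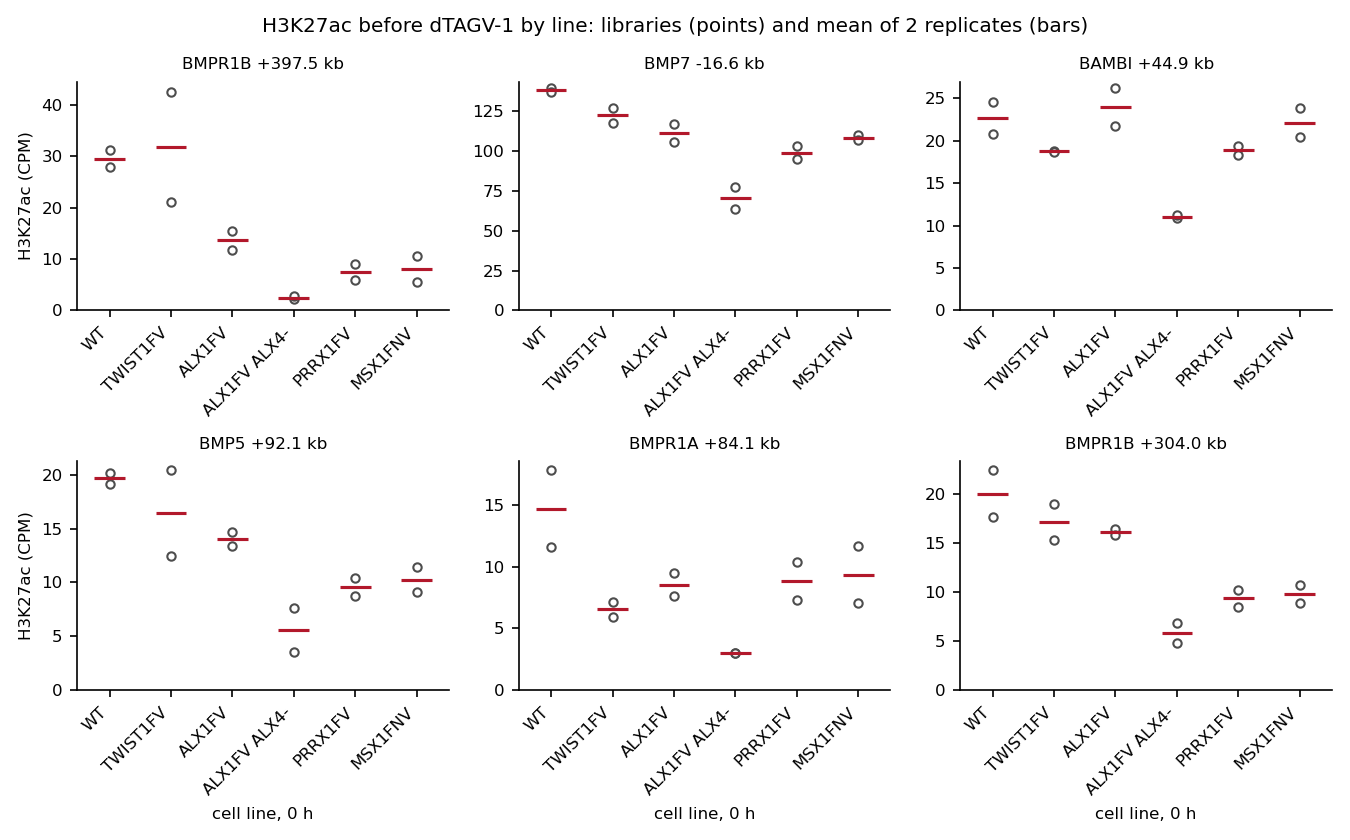
H3K27ac in CPM (y axis) at 6 regions before dTAGV-1 in the 6 hCNCC lines (x axis); points are libraries and bars the mean of 2 replicates. At BMPR1B +397.5 kb the ALX1FV ALX4- libraries are at 2.17 and 2.72 and those of WT at 27.8 and 31.2, and those of ALX1FV, PRRX1FV and MSX1FNV lie between.

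Against WT, several edited lines were lower at the same loci at 0 h. These contrasts share the WT libraries, and WT and TWIST1FV carried a mouse chromatin spike-in that the other lines did not, so line and library preparation cannot be told apart. The next counts are of 268 tested member regions, and the bracket beside each gives the share called among all tested regions. ALX1FV ALX4- was lower at 40 (5.30%) and higher at 4 (3.17%), and PRRX1FV lower at 26 (1.80%) and higher at 1 (0.855%). MSX1FNV was lower at 24 (1.51%) and higher at 2 (1.09%), and ALX1FV lower at 2 (0.154%) and higher at 0 (0.258%). TWIST1FV was lower at 1 (0.0384%) and higher at 0 (0.0361%). In the last 2, unadjusted edgeR p-values under 0.05 in either direction were found at 35 and 20 regions. BMPR1B held 19 of the 40 in ALX1FV ALX4-, 12 of the 26 in PRRX1FV and 14 of the 24 in MSX1FNV. BMP7 +8.5 kb, intronic, had 7.81 and 8.17 CPM in ALX1FV ALX4-, 13.5 and 7.84 in PRRX1FV, 18.5 and 9.25 in MSX1FNV, 14.4 and 24.1 in ALX1FV, 64.0 and 32.0 in TWIST1FV and 51.0 and 38.4 in WT. Its log2 difference from WT was −2.48 in ALX1FV ALX4- (edgeR FDR 3.20e-08), −2.07 in PRRX1FV (FDR 1.43e-05), −1.72 in MSX1FNV (FDR 0.000250, lost without MSX1FNV replicate 2, 0.108) and −1.21 in ALX1FV (FDR 0.0406, lost without ALX1FV replicate 1, 0.359, WT replicate 1, 0.411, or WT replicate 2, 0.0764). BMPR1B +9.1 kb was lower in ALX1FV ALX4- (−1.51, edgeR FDR 1.42e-07), MSX1FNV (−1.27, FDR 6.03e-05) and PRRX1FV (−1.36, FDR 1.50e-05). The TWIST1FV region lower than WT was BMPR1A +29.7 kb (−0.89, FDR 0.0117), lost without any 1 of the 4 libraries (0.0744 to 0.351). The counts lower were 7 to 15 in PRRX1FV when 1 library was left out (7 without PRRX1FV replicate 2, 10 without its replicate 1, 11 without WT replicate 1, 15 without WT replicate 2), and in MSX1FNV 1 without MSX1FNV replicate 2, 12 without WT replicate 1 and 14 without WT replicate 2. The 2 lower in ALX1FV were 0 without ALX1FV replicate 1, WT replicate 1 or WT replicate 2, and 1 without ALX1FV replicate 2. The 4 higher in ALX1FV ALX4- were 2 without its replicate 1 or WT replicate 2 and 1 without WT replicate 1. The 2 higher in MSX1FNV were 1 without WT replicate 2 and 0 without either MSX1FNV replicate or WT replicate 1, and the 1 higher in PRRX1FV was 0 without any 1 of the 4 libraries.

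V5-tagged ALX1 was listed at few of these sites, in lists far shorter than those of TWIST1. ALX1FV replicate 1 listed 8 V5 peaks near the 10 genes of 1389 (57.6 per 10000, beside 20.7 to 24.0 in the TWIST1 lists of WT), and replicate 2 listed 0 of 376. The 8 were BMP7 +132.4, +24.7, +21.7, +4.6 and −16.8 kb, BMP4 +21.3 kb, BMPR1B +9.7 kb and BAMBI +8.3 kb, and all overlapped reference TWIST1 peaks, as did 97.6% of all 1389. ALX1FV ALX4- listed 3 of 920 and 4 of 1116 (32.6 and 35.8 per 10000), lists of which 99.3% and 98.5% overlapped reference TWIST1 peaks. BMP7 +132.3 kb ranked 20 and 12 in these lists, and BMP7 +24.7 kb was in both too. The others were BMP5 −15.0 kb in replicate 1, and BMP7 −16.6 kb and BMPR1B +9.1 kb in replicate 2. PRRX1FV listed 2 and 1 V5 peaks in all and MSX1FNV 50 and 278, none near these genes. H3K27ac at the V5-bound regions did not pass the test when ALX1 was depleted. The largest change in ALX1FV was at BMP4 +21.3 kb, from 26.7 and 20.3 CPM at 0 h to 21.8 and 13.8 at 3 h and 12.5 and 12.5 at 24 h. Both 24 h libraries lay below both untreated ones, with log2 changes of −0.42 at 3 h and −0.92 ± 0.28 at 24 h (edgeR FDR 1.000 each), and this region also fell in TWIST1FV. That fit did not pair the clones of ALX1FV, and a fit with a replicate block called no member region either. BMP7 +132.5 kb had log2 changes of −0.02 at 3 h and −0.07 at 24 h in ALX1FV (edgeR FDR 1.000 each) and −0.26 (FDR 1.000) and −0.31 ± 0.11 (FDR 0.650) in ALX1FV ALX4-, beside −1.91 and −1.99 in TWIST1FV. The V5 libraries at 3 h were not analysed here.

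Among other hCNCC lists, the Abcam TWIST1 list overlapped 92 of the 103 reference peaks (89.3%, against 89.4% of all). TWIST1 lists of ALX1FV ALX4- overlapped 82 and 75 (79.6% and 72.8%, against 76.9% and 71.4%). The 2 lists of AP2a, a neural crest factor, overlapped 23 and 26 (22.3% and 25.2%, against 21.3% and 23.3%), of which 12 and 14 were at BMP7. RS4;11 lymphoblasts listed TWIST1 peaks at 10 of the 103 (9.71%, against 20.3%), and none of these was a BMPR1B or BMP5 peak.

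In HEK293 cells, lists of V5-TWIST1(WT) expressed with ALX4 held more peaks near the 10 genes than those without. The numbers were 33, 24 and 65 peaks without ALX4, or 10.8, 10.7 and 11.6 per 10000 listed peaks, and 60, 70 and 106 with it, or 20.4, 16.9 and 16.3 per 10000. All 3 lists with ALX4 lay above all 3 without, at 17.9 ± 2.2 against 11.0 ± 0.495 (SD, n = 3 each), and the exact two-sided permutation test gave p = 0.100, the smallest that 3 against 3 allow. The difference was 6.83 per 10000. BMPR1B had 10, 4 and 7 peaks without ALX4 and 21, 15 and 27 with it, or means of 2.10 and 4.97 per 10000. BAMBI went from 3, 3 and 8 to 10, 10 and 14, or from 1.25 to 2.66 per 10000. BMP5 went from 0, 0 and 2 to 0, 8 and 12, or from 0.119 to 1.26 per 10000. The mean rates of NOG (1.07 and 2.17), BMPR2 (1.13 and 2.38) and BMP7 (0.943 and 1.09) were also higher with ALX4. BMP4, with 1, 1 and 2 against 1, 1 and 1, and GREM1, with 3, 2 and 7 against 1, 2 and 5, did not have more. By mean rate, neither did BMP2 (0.971 without and 0.560 with ALX4 per 10000) or BMPR1A (2.03 and 2.01). Of the 31 member peaks common to the 3 lists with ALX4, 13 overlapped none in the 3 lists without (41.9%, against 29.6% of 18019). Of the 13, 5 lay on reference TWIST1 peaks of hCNCC (2066 of the 5329 over all): BAMBI +8.2 and +37.7 kb, BMP7 +21.9 kb, NOG +85.7 kb and BMPR1B +348.8 kb.

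**Figure D5:**
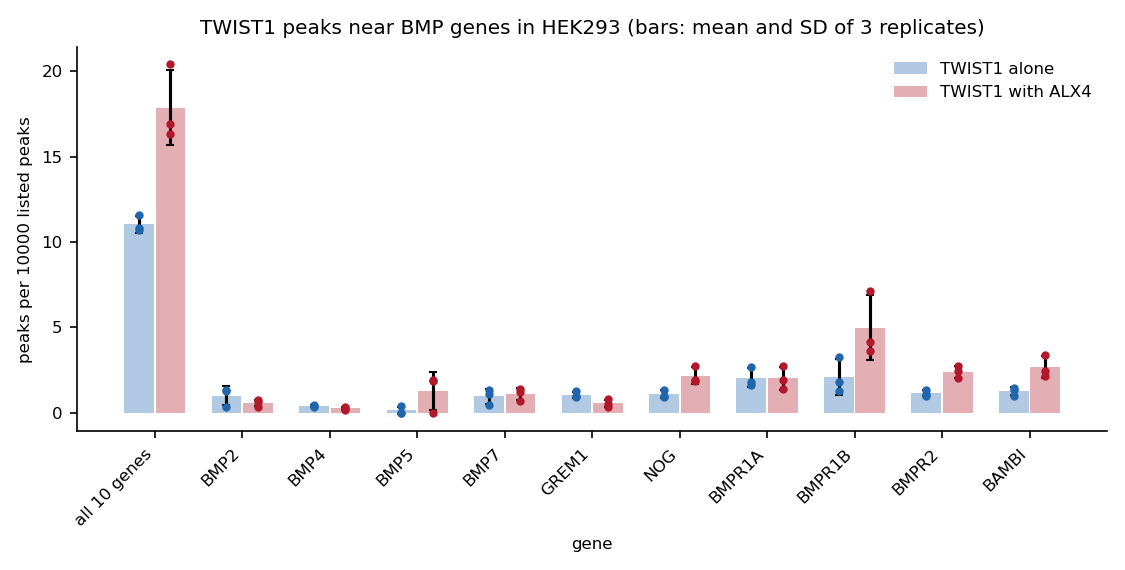
TWIST1 peaks near each gene per 10000 listed peaks (y axis) in HEK293 cells with V5-TWIST1(WT) alone (blue) or with ALX4 (red); bars are means with SD and points the 3 replicates. Over all 10 genes the lists with ALX4 are at 16.3 to 20.4 and those without at 10.7 to 11.6.

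Single HEK293 lists gave the following values, with no replicate. With TWIST1 from pCAG plasmids, 72 peaks (14.3 per 10000) were listed without ALX4 and 130 (20.1 per 10000) with it. Of these, 6 and 32 were near BMP5. In lists made with the TWIST1 antibody, V5-TWIST1 alone gave 8.44 peaks per 10000, with ALX4 16.8, with PRRX1a 17.1, with PRRX1b 13.3, with PHOX2A 17.1 and with MSX1 12, the last from 3 peaks only. Across 13 engineered TWIST1 proteins, each with 1 list with and 1 without ALX4, the rate was higher with ALX4 for 9 and lower for 4, with a median difference of 0.405 and a range of −1.91 to 6.81 per 10000. A control with the pUC19 plasmid listed 1 member peak of 463.

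Twist1 bound the orthologous genes in mouse face and limb. The lists held 103 peaks near the 10 genes in FNP, 35 in Mx, 49 in Md, 101 in FL and 86 in HL, or 24.6, 19.5, 19.7, 21.9 and 21.3 per 10000. Bmp7 +6.0 kb ranked 761 in FNP and 961, 1972, 1358 and 1251 in Mx, Md, FL and HL, and Bmpr1b +245.8 kb ranked 831, 3203, 1219, 2292 and 3139. The highest peak of Bmp4, +62.7 kb, and that of Grem1, +65.2 kb, were listed in FNP, FL and HL and in neither Mx nor Md, whose lists are shorter. Of the 103 human reference peaks, 56 matched sequence near the mouse orthologue, 33 of these matches overlapped a Twist1 peak in at least 1 tissue, and 13 did so in all 5. Matches were not sought for reference peaks elsewhere in the genome, so these counts have no background. At BMP7 12 of 12 matches were bound in some tissue, at BMPR1B 7 of 12, at BAMBI 6 of 9, at BMP4 4 of 7 and at BMP5 0 of 5. The match of BMPR1B +301.7 kb, where H3K27ac fell by 2.61 on the log2 scale in TWIST1FV at 24 h, lay at Bmpr1b +245.9 kb and overlapped a peak in all 5 tissues. The match of BMPR1B +9.2 kb was bound in none.

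Around 44 further ligand, modulator, receptor, SMAD and target genes, 54 of 775 tested regions fell in TWIST1FV at 24 h (6.97%, against 9.49% of all tested regions) and 47 rose (6.06%, against 4.28%), with a median log2 change of 0.08, against 0.03. The receptor genes had 21 falling and 9 rising of 172, of which TGFBR3, a co-receptor gene, held 12 and ACVRL1 8 of the falling. The target genes had 7 falling and 13 rising of 134, and 11 of the latter were near ID3, a direct target of BMP signalling. The SMAD genes had 12 falling and 3 rising of 154, the modulators 10 and 14 of 232, and the ligands 4 and 8 of 83, the 8 all near GDF7. The lowest FDR was at ACVRL1 −61.8 kb, which went from 50.0 and 48.9 to 7.31 and 8.94 CPM, a log2 change of −2.60 ± 0.23 (edgeR FDR 1.18e-06).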

How the data were processed

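H3K27ac was taken from the counts the authors deposited per merged ATAC-seq region, and binding from peak lists with the authors' fold enrichment (a ratio) and −log10 q. Per the submitters' processing notes the tools were Bowtie2 2.4.1, SAMtools 1.10, MACS2 2.2.7.1 and deepTools 3.5.0, with no role stated. Peaks were listed per sample. At least 76.7% of deposited counts of 20 or more were even in each library, which may mean that both mates of a pair were counted, and the counts were used as deposited. Of 200 samples, 94 (86 inputs and 8 V5 libraries at 3 h) were not analysed here.

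The quasi-likelihood test of edgeR 4.0.16 (R 4.3.3) was run for each line after TMM scaling, with filterByExpr and Benjamini-Hochberg FDR 0.05 over all tested regions. A joint fit of the 36 libraries gave the 0 h contrasts, the TWIST1FV minus WT responses and the CPM (on TMM-scaled totals). The mouse chromatin spike-in of WT and TWIST1FV was not used for scaling. SE is the log2 change over the root of F. The scripts were tested on simulated data. GENCODE 44 (hg38) and M39 (mm39) gave transcript starts, and peaks overlapped by at least 1 bp. Human windows of 301 bp were matched to mouse with blastn 2.17.0 (E at most 1e-10, within 500 kb of the orthologue). Exact tests used scipy 1.17.1. The labels do not say that replicates were separate cultures, so p-values measure the spread between these samples.

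Named regions were, per gene, the highest start region, the called region of largest change per direction and time above the median level, and the called region of lowest FDR in each 0 h contrast; further regions were named after their values were seen. The members and lists were chosen with earlier results of these data known. Replicate numbers pair clones in ALX1FV (correlation of deviations 0.253 to 0.264), ALX1FV ALX4- (0.0273 to 0.0367) and PRRX1FV (0.0182 to 0.0208), and a replicate block called 0 member regions there. Alternatives were DESeq2 1.42.0, scaling by library size, no filter, other windows and leaving out each library.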

Additional observations from a re-analysis of the deposited data

Results flagged for a closer look

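The response of TWIST1FV to dTAGV-1 differed from that of WT, by an interaction term in the joint edgeR fit (FDR below 0.05), at 14 member regions that were lower and 1 that was higher at 3 h, and at 26 that were lower and 6 that were higher at 24 h. The log2 difference in response at 24 h was −3.17 at BMPR1B +348.8 kb, −2.86 at BMP7 +128.8 kb, −2.82 at BAMBI +17.1 kb and −1.59 at BMP4 +21.3 kb. It was 2.51 at BMP7 −75.3 kb and 1.36 at BMPR1A +29.7 kb. At 3 h it was −2.54 at BAMBI +17.1 kb, −2.31 at BMPR1B +348.3 kb and −2.15 at BMP7 +134.7 kb.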

How the results depend on the processing

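Of 723 alternative values for the 3 h and 24 h changes of named regions in TWIST1FV, 680 kept their direction and side of the threshold, 28 lost the call, 15 gained it and 0 reversed. In the 0 h contrasts between lines, 33 of 51 calls at named regions were lost in at least 1 fit that left out a library. In TWIST1FV, where replicates share only a number (correlation of deviations 0.0766 to 0.140), a replicate block gave 30 falling and 8 rising regions at 3 h and 47 and 14 at 24 h. The rising count at 3 h was 1 with no filter, 1 within 50 kb and 2 where the nearest protein-coding start had to be a member's, and at 24 h it was 4 within 50 kb. With only the 12 libraries of both lines, TWIST1FV was lower than WT at 2 regions, ALX1FV ALX4- higher at 7 and PRRX1FV higher at 3. Leaving out 1 library gave 10 to 21 falling and 1 to 5 rising regions at 3 h, and 27 to 42 and 6 to 12 at 24 h. The responses lower than in WT were 9 to 13 at 3 h and 19 to 26 at 24 h, and those higher 0 to 2 and 1 to 6. At 0 h, ALX1FV ALX4- was lower than ALX1FV at 5 to 13. Against WT, ALX1FV ALX4- was lower at 28 to 36 and higher at 1 to 3, ALX1FV lower at 0 to 1, MSX1FNV lower at 1 to 19 and higher at 0 to 1, PRRX1FV lower at 7 to 15 and higher at 0 to 0, and TWIST1FV lower at 0 to 0. The cause of these shifts was not tested. The retention difference was −81.5 to −75.2 percentage points without 1 replicate, an alternative chosen after seeing the data, and the HEK293 difference 5.47 to 7.90 per 10000; with the replicate block it was 6.83. With 2 libraries a group, changes smaller than their spread were not detectable.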
